A study of Canis lupus familiaris with 14 samples.

Results

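Genes of cytotoxic lymphocytes and natural killer (NK) cells were followed across canine lymphomas and normal lymph nodes. Of 10 such genes (CTSW, GZMA, GZMB, GZMK, PRF1, KLRB1, KLRD1, KLRK1, NKG7 and EOMES), 8 were represented by probe sets annotated with exactly 1 gene symbol, out of 15115 genes so annotated on the array. KLRB1 and KLRK1, which encode lectin-like receptors of NK cells, were not among the annotated symbols and were not analysed here. Each lymph node was sampled by fine needle aspirate and its RNA, amplified before labelling, was hybridized to 1 GeneChip Canine Genome V2.0 array. Of the 14 arrays, those of lymphoma came from companion dogs. In 3 dogs the lymphoma is labelled T-cell (NE45, FS25, FS22) and in 7 B-cell (RB07 and RB10, RB03 and RB16, NE41 and NE42, FS21). The normal nodes came from 3 disease-free dogs of a Beagle colony (63, 2970 and, with a pair of nodes, 3024l and 3024r). The lymphomas were natural tumors of dogs of several breeds, aspirated before an investigational PI3-kinase inhibitor was given. RB07 and FS21, labelled B-cell, and FS25 and FS22, labelled T-cell, had relapsed and had received chemotherapy earlier. Earlier chemotherapy was thus uneven between the labelled groups, and its part in the differences below was not tested. The prefixes FS, NE and RB stand for the 3 clinics that collected the lymphomas, so clinic, breed and the source of the dogs cannot be told apart from the contrast of lymphoma with normal, although FS22 was a Beagle too.

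Cytotoxic T cells and NK cells kill target cells by releasing granules that hold perforin, which opens the target's membrane, and granzymes, serine proteases that then act inside it. Receptors at the surface of the killer cell decide whether the granules are released, and transcription factors of the T-box family switch on the granule genes. In a lymph node these cells are a minority beside B cells and helper T cells. In whole aspirates, fewer cells of a type and less RNA per cell cannot be told apart.

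Each array had been scaled to the same trimmed mean, its median signal lay between 85.5 and 131, and 47.2 to 55.7% of its probe sets reached a signal of 100 (6.64 on the log2 scale), which was taken here as the floor below which a gene counts as dim. The labels did not match the marker genes on 3 arrays. CD3E, part of the antigen receptor of T cells, showed log2 signals of 12.11 in RB07 and 12.54 in RB10, which are labelled B-cell, and of 8.80 in FS22, which is labelled T-cell. The study's own clustering of the profiles set RB07 and RB10 with FS25 and NE45 in a class with the letters K–N, and FS22 with FS21, NE41, NE42, RB03 and RB16 in a class E–J. The mean log2 signal of 16 T-cell markers was 10.06 to 10.35 in K–N, 6.24 to 7.43 in E–J and 8.14 to 9.92 in the normal nodes. Because the classes were drawn from these same profiles, values by class are given below as a description and tests were run only between labelled groups. CD3D stayed above 10 on the log2 scale on every array, and NCR1, which encodes a receptor largely confined to NK cells, was at most 7.03, in 3024r.

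The 8 genes were covered by 12 probe sets, and their brightness set what could be measured. CTSW and GZMA, with 1 probe set each, reached the floor on 8 and 9 of the 14 arrays. KLRD1 reached it on 7 arrays, EOMES on 4 and PRF1 on 1. NKG7 had 3 probe sets whose means over all arrays were 9.99, 6.62 and 4.40, the brightest of which reached the floor on all 14 arrays. GZMK had a bright probe set (mean 7.82, at the floor on 10 arrays) and a dim one (mean 3.20, at the floor on 0 arrays), so that the gene value, the mean of the log2 signals, lies well below the bright probe set. The 2 probe sets of GZMB, with means of 6.44 and 4.81, differed by 0.04 to 6.13 on the log2 scale, the widest gap being on FS25 (7.53 against 1.40). All probe sets of NKG7 and of GZMK were lower in every lymphoma group than in normal nodes, whereas the probe sets of GZMB disagreed in direction for all B-cell lymphomas against normal (0.56 and -0.53). One of the GZMB probe sets and a pair of those of NKG7 carry the suffix that Affymetrix gives to probes able to match more than 1 transcript.

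**Figure D1:**
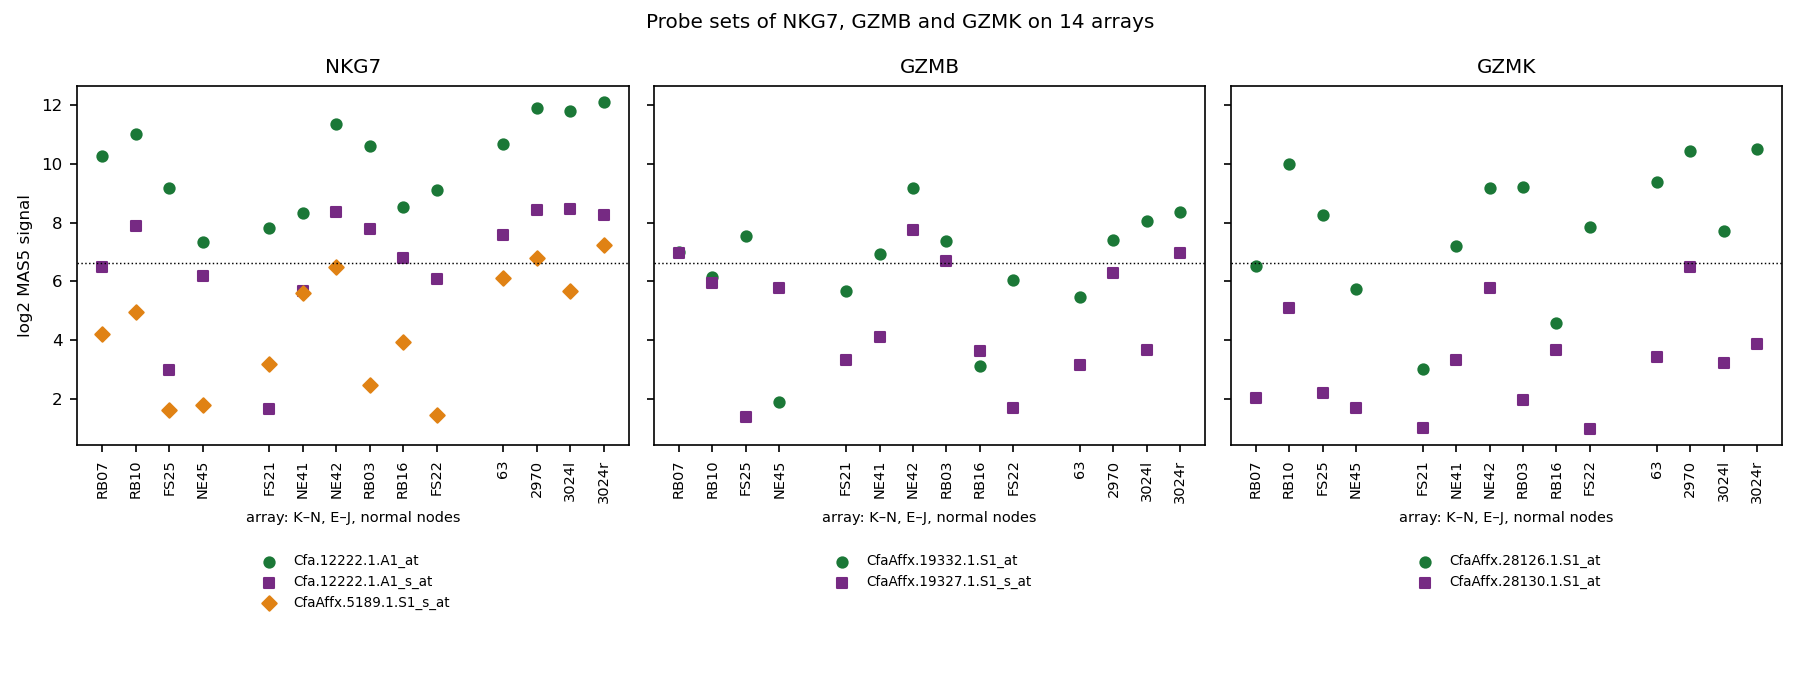
Log2 MAS5 signal (y axis) of every probe set of NKG7, GZMB and GZMK on the 14 arrays (x axis: K–N lymphomas, E–J lymphomas, normal nodes), with symbols for the probe sets and a dotted line at a signal of 100. The brightest NKG7 probe set lies above the line on all 14 arrays, while the dim GZMK probe set lies below it on all of them.

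CTSW, which encodes cathepsin W, a protease of cytotoxic lymphocytes whose part in killing is not settled, separated the arrays more widely than any other of the 8 genes (standard deviation 2.95 over 14 arrays, against 1.60 to 2.26 for the rest). In the K–N lymphomas its log2 signal was 10.05 in RB07, 10.50 in RB10, 11.21 in FS25 and 11.61 in NE45. In the 6 E–J lymphomas it had a lowest value of 2.52 in RB16, a median of 5.54 and a highest value of 6.59 in RB03, all below the floor. The normal nodes gave 10.05 in 63, 10.80 in 2970, 9.69 in 3024l and 9.96 in 3024r. Every K–N lymphoma and every normal node thus lay above every E–J lymphoma, and K–N overlapped with the normal nodes. The step between K–N and E–J ran across the labels, since FS22, labelled T-cell, had 6.38.

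The granzymes did not follow this step. GZMA, which encodes granzyme A, a tryptase-like granule protease, had log2 signals of 7.91 in RB07, 8.39 in RB10, 6.63 in FS25 and 2.69 in NE45. In E–J it had a lowest value of 3.18 in FS22, a median of 7.32 and a highest value of 9.27 in NE42. The normal nodes gave 6.97 in 63, 8.69 in 2970, 6.55 in 3024l and 8.50 in 3024r, within the range of the E–J lymphomas. Among the lymphomas GZMA was lowest in NE45, FS22, NE41 and FS25, so that all 3 labelled T-cell lay at 6.63 or below. NE45 and FS22 had the lowest GZMA signals of all 14 arrays although they lie in different classes.

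GZMB encodes granzyme B, which cleaves after aspartate and activates caspases in the target. Its log2 signal was 6.97 in RB07, 6.05 in RB10, 4.47 in FS25 and 3.83 in NE45. The E–J lymphomas had a lowest value of 3.40 in RB16, a median of 5.01 and a highest value of 8.45 in NE42. In the normal nodes GZMB was 4.31 in 63, 6.85 in 2970, 5.85 in 3024l and 7.66 in 3024r. The normal nodes alone covered more than 3 units on the log2 scale, and both lymphoma classes overlapped with them.

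GZMK, which encodes granzyme K, a tryptase-like granzyme of memory-type CD8 T cells and some NK cells in humans and mice, had its highest gene value in the normal node 2970. Its gene value was 4.29 in RB07, 7.54 in RB10, 5.23 in FS25 and 3.72 in NE45. In E–J the lowest value was 2.03 in FS21, the median 4.84 and the highest value 7.47 in NE42. For the normal nodes the values were 6.40 in 63, 8.46 in 2970, 5.48 in 3024l and 7.18 in 3024r. By gene value, only RB10, NE42 and RB03 among the lymphomas were above the lowest normal node, 3024l. On the bright probe set FS25 (8.26) and FS22 (7.84) were above 3024l (7.71) as well.

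PRF1 encodes perforin, the protein through which granzymes enter the target. Its probe set was dim, at 0.73 to 2.88 in K–N, 2.02 to 5.99 in E–J and 1.79, 2.58, 5.97 and 6.97 in the normal nodes 63, 2970, 3024l and 3024r. The value of 3024r was the only one at the floor, and PRF1 was therefore tested in no comparison. Both nodes of dog 3024 lay above the nodes of the other normal dogs.

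NKG7 encodes a membrane protein of the cytotoxic granule. Its probe sets are assigned by the symbol in the array's annotation, whose gene ID differs from the one RefSeq gives for NKG7, so which gene they measure rests on that symbol. Its gene value was 6.98 in RB07, 7.96 in RB10, 4.60 in FS25 and 5.11 in NE45. In E–J the lowest value was 4.23 in FS21, the median 6.48 and the highest value 8.73 in NE42. Normal nodes had NKG7 at 8.11 in 63, 9.04 in 2970, 8.63 in 3024l and 9.19 in 3024r. By gene value all lymphomas but NE42 lay below every normal node, and within K–N both lymphomas labelled B-cell were above both labelled T-cell. On the brightest probe set RB10 (11.02) lay above node 63 (10.65) as well. On the probe set with a mean of 6.62, RB10 (7.88) and RB03 (7.78) did so too (7.59 in 63).

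KLRD1 encodes CD94, which pairs with NKG2 receptors on NK cells and on some CD8 T cells. Its log2 signal was 3.83 in RB07, 1.74 in RB10, 7.04 in FS25 and 6.14 in NE45. In E–J the lowest value was 3.46 in RB16, the median 6.08 and the highest value 8.48 in NE42. KLRD1 in the normal nodes was 8.64 in 63, 9.10 in 2970, 7.77 in 3024l and 8.91 in 3024r. On this single probe set NE42 alone among the lymphomas lay above a normal node. Within K–N the order was the reverse of that of NKG7, with both lymphomas labelled T-cell above both labelled B-cell.

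EOMES, the T-box factor eomesodermin of memory CD8 T cells and NK cells, had log2 signals of 3.29 in RB07, 7.05 in RB10, 6.08 in FS25 and 2.01 in NE45. The E–J lymphomas had a lowest value of 3.23 in FS21, a median of 5.37 and a highest value of 6.59 in FS22. Normal nodes had EOMES at 7.35 in 63, 8.38 in 2970, 6.19 in 3024l and 7.47 in 3024r. RB10, FS22 and NE42 were above 3024l, and all lymphomas were below the other 3 normal nodes.

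**Figure D2:**
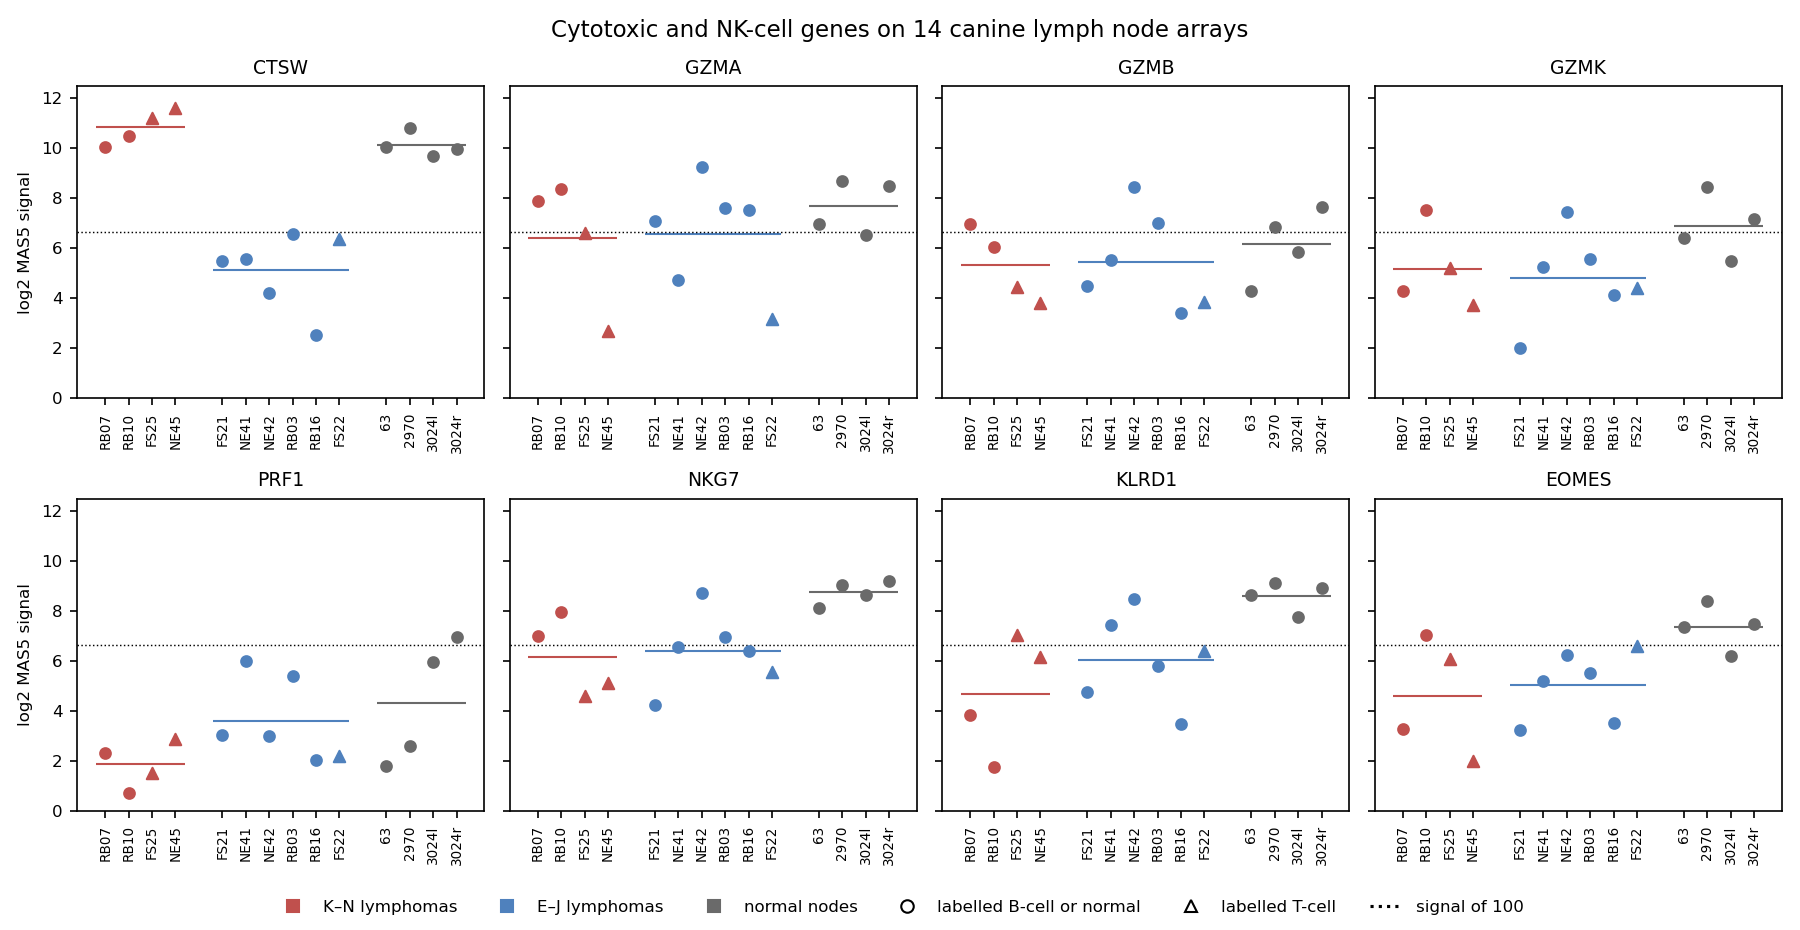
Log2 MAS5 signal (y axis, gene means) of the 8 genes on the 14 arrays (x axis), colored by K–N lymphomas, E–J lymphomas and normal nodes. Triangles are lymphomas labelled T-cell, bars are class means and the dotted line is a signal of 100. CTSW is at 10.05 or above in all K–N lymphomas and at 6.59 or below in all E–J lymphomas. NE42 has the highest gene mean among the E–J lymphomas for GZMA, GZMB, GZMK, NKG7 and KLRD1.

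Before the comparisons with normal nodes, the spread between a pair of nodes of 1 dog was examined. All 8 genes were lower in 3024l than in 3024r, by 0.27 for CTSW, 0.55 for NKG7 and 1.95 for GZMA on the log2 scale, with a median of -1.21. Of all genes at the floor on at least 3 arrays, 67.5% were lower in 3024l, with a median of -0.41. The 13 macrophage markers showed a median of -1.74 between these nodes. RNA integrity can affect the ratio of 3' to 5' probe set signals of GAPDH. This ratio was 23.2 on 3024l and 3.30 to 8.94 on the other arrays. The paper reports that the RNA of all samples passed its integrity checks. The part of this ratio in these differences was not tested.

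The first comparison asked how B-cell lymphoma differs from normal lymph node in the set that the study chose, with RB16, RB03, NE42 and FS21 as the lymphomas and 63, 2970 and 3024r as the normal nodes. The set was chosen in part for lacking a T-cell signature, so a fall of T-cell genes in it is not independent evidence. Of the 8 genes, 7 could be tested, and 2 of them, CTSW and EOMES, were lower in the lymphomas at an adjusted p under 0.05 from limma. None was higher. Over all 8295 genes tested, 10.9% passed the threshold in either direction, 7.39% being lower and 3.48% higher. CTSW had a mean log2 signal of 4.70 ± 1.75 in the lymphomas and 10.27 ± 0.46 in the normal nodes (SD, n = 4 and 3), a difference of -5.57 (standard error 0.89, adjusted p = 0.0150). As all 4 lymphomas were below the floor, CTSW was at least 12.4-fold lower when they are set to that floor. EOMES averaged 4.63 ± 1.49 in the lymphomas and 7.74 ± 0.56 in the normal nodes (SD, n = 4 and 3), with a difference of -3.11 (standard error 0.78, adjusted p = 0.0456) and was at least 2.13-fold lower on the same basis. KLRD1 did not overlap between the groups either, but its difference of -3.26 did not pass (adjusted p = 0.0898). No overlap in this direction was seen for 3 of the 7 genes and for 18.0% of all genes.

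The differences of GZMA and GZMB in the B-cell set lay closer to 0. GZMA averaged 7.89 ± 0.95 in the lymphomas and 8.05 ± 0.95 in the normal nodes (SD, n = 4 and 3), a difference of -0.17 with a 95% interval of -1.62 to 1.28. The interval for GZMB, -3.52 to 2.67 around a difference of -0.43, was too wide to tell a fall from a rise. GZMK (-2.54, adjusted p = 0.202) and NKG7 (-2.20, adjusted p = 0.167) did not pass the threshold. The median difference of the 7 genes was -2.54, and that of all genes tested was -0.06. Both calls were lost when any of the 3 normal nodes was left out, where CTSW had adjusted p-values of 0.0529 to 0.0755 and EOMES of 0.107 to 0.167 with the set of tested genes held fixed. The call for EOMES was also lost without FS21 (adjusted p = 0.0714) or RB16 (adjusted p = 0.0779). Without NE42, KLRD1 passed (-4.21, adjusted p = 0.0162). NE42 was already known to be high within E–J when the genes were chosen, so this call adds no support.

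Markers of other cells fell in the same comparison. Of 15 T-cell markers tested 9 were lower, as were 11 of 13 macrophage markers and 8 of 9 genes of endothelium and stroma, while 5 of 12 genes of cell division and 2 of 10 B-cell markers were higher. Of 5 NK-cell markers 0 passed, with a median difference of -1.69. The mean log2 signal of the macrophage markers was 6.62 to 8.61 over all lymphomas and 9.62 to 11.47 in the normal nodes, and that of the NK-cell markers was 5.20 to 7.04 in K–N, 4.64 to 6.15 in E–J and 6.01 to 7.83 in the normal nodes. The part of these cells in the fall of CTSW and EOMES was not tested.

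With all 7 lymphomas labelled B-cell set against the 3 normal dogs, 0 of 7 genes passed the threshold by limma. The methods' test called 0 too, and 4 genes (CTSW, KLRD1, NKG7 and EOMES) had an unadjusted p under 0.05, all lower. Over all 8804 genes tested, 1.92% were called (1.57% lower and 0.352% higher) and 10.6% were lower at an unadjusted p under 0.05. Each of the 7 genes overlapped between the groups, while 6.62% of all genes lay lower without overlap. CTSW averaged 6.42 ± 2.93 in the lymphomas and 10.23 ± 0.51 in the normal dogs (SD, n = 7 and 3), with a difference of -3.81 (adjusted p = 0.212). RB07 and RB10, with high T-cell markers, were at 10.05 and 10.50, and the other 5 at 6.59 or below. Without RB07 and RB10 the difference was -5.35 and passed (adjusted p = 0.0112). KLRD1 had a difference of -3.63 (adjusted p = 0.146) and EOMES of -2.66 (adjusted p = 0.127). GZMA (-0.21, 95% interval -1.98 to 1.55) and GZMB (0.02, 95% interval -2.19 to 2.23) centered near 0.

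T-cell lymphoma and normal nodes were compared with 3 dogs in each group. Of 5 genes tested, NKG7 and KLRD1 were lower in T-cell lymphoma and none was higher, where 1.41% of 7936 genes were called, 1.23% lower and 0.176% higher. NKG7 averaged 5.09 ± 0.48 in T-cell lymphoma and 8.69 ± 0.50 in the normal dogs (SD, n = 3 each), a difference of -3.60 (standard error 0.40, adjusted p = 0.0245). KLRD1 averaged 6.52 ± 0.47 in T-cell lymphoma and 8.69 ± 0.38 in the normal dogs (SD, n = 3 each), a difference of -2.18 (standard error 0.38, adjusted p = 0.0495). GZMA and EOMES also lay lower in all 3 T-cell lymphomas than in any normal dog, with differences of -3.56 (adjusted p = 0.150) and -2.63 (adjusted p = 0.313). Both were below the floor in all 3 lymphomas. With these set to the floor, the group means were 2.12-fold lower for GZMA and 1.84-fold lower for EOMES. These figures carry no sampling error, and the 95% interval of EOMES (-5.43 to 0.17) included no difference. The 4 genes without overlap compare with 13.9% of all genes. CTSW was the exception, with 9.73 ± 2.91 in T-cell lymphoma and 10.23 ± 0.51 in the normal dogs (SD, n = 3 each) and a difference of -0.50 (95% interval -3.63 to 2.63). FS22, at 6.38, stood well below FS25 and NE45, and without it the difference of CTSW was 1.18. NKG7 and KLRD1 passed without FS22 too (adjusted p = 0.00657 and 0.0368).

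Both calls in T-cell lymphoma were lost when any normal dog or NE45 was left out. NKG7 then had adjusted p-values of 0.0907 to 0.141 without a normal dog, with the set of tested genes held fixed, and 0.0581 without NE45. With its brightest probe set alone NKG7 differed by -2.95 and did not pass (adjusted p = 0.0816). Without FS25 the call for KLRD1 was lost (adjusted p = 0.0561) and GZMA passed instead (-4.79, adjusted p = 0.0393). The macrophage markers AIF1, C1QB, CD163 and CSF1R, 4 of 13, were lower in T-cell lymphoma as well, and 0 of 15 T-cell markers passed the threshold. The part of macrophages in the fall of NKG7 and KLRD1 was not tested.

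The last comparison set T-cell lymphoma against B-cell lymphoma. None of 5 genes passed, nor did any of the 8567 genes tested (0% called), of which 3.65% had an unadjusted p under 0.05. The methods' test called 0 genes as well. GZMA had the smallest p of the 5 genes, with 4.17 ± 2.15 in T-cell lymphoma and 7.51 ± 1.40 in B-cell lymphoma (SD, n = 3 and 7), a difference of -3.35 (95% interval -5.55 to -1.14, adjusted p = 0.956). GZMA was below the floor in all 3 T-cell lymphomas. With them set to the floor its mean was 1.83-fold lower, for a difference that did not pass. NKG7 averaged 5.09 ± 0.48 in T-cell lymphoma and 6.83 ± 1.41 in B-cell lymphoma (SD, n = 3 and 7), a difference of -1.74 (adjusted p = 0.956). CTSW was 3.31 higher in T-cell lymphoma, with a 95% interval of -0.61 to 7.23. The interval of KLRD1, -1.31 to 4.21 around a difference of 1.45, included 0 as well. Without RB07, RB10 and FS22, 2 of the genes could be tested and 0 passed.

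**Figure D3:**
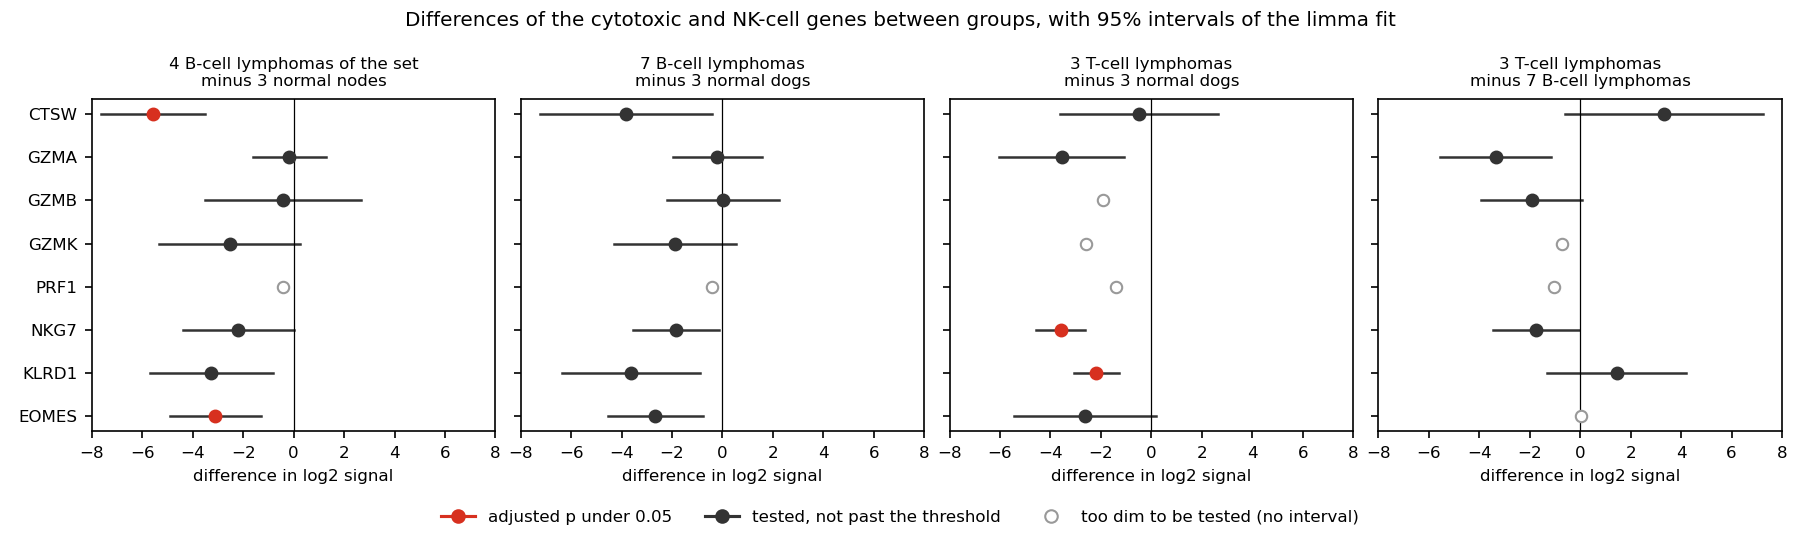
Differences in mean log2 signal (x axis) of the 8 genes (rows) in the 4 comparisons, with 95% intervals of the limma fit. Red points passed an adjusted p of 0.05, black points did not, and open points mark genes too dim to be tested. CTSW and EOMES passed in the B-cell set and NKG7 and KLRD1 in T-cell lymphoma.

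Further genes of the cytotoxic program were taken from 6 lists, of which 75 of 88 genes were on the array. In the B-cell set 15 of 54 tested were lower and 0 higher, against 7.39% and 3.48% of all genes tested. These lists include T-cell genes, and the set was chosen in part for lacking a T-cell signature, so this count is not independent evidence. Among the receptors and adaptors of cytotoxic cells, 6 of 14 were lower. CRTAM, an adhesion receptor of activated CD8 T and NK cells, averaged 5.58 in the lymphomas and 8.56 in the normal nodes, a difference of -2.98 (standard error 0.31, adjusted p = 0.00414), and was at least 3.77-fold lower with the lymphomas set to the floor. FCER1G and TYROBP, signalling adaptors that NK cells share with myeloid cells, had differences of -2.78 and -2.20, and CD8B, a chain of the CD8 coreceptor, had -3.74. Among the transcription factors 5 of 11 were lower, with PRDM1, a regulator of late effector and plasma cells, at -3.68 (adjusted p = 0.0104) and TCF7, a factor of naive and memory T cells, at -3.58 (adjusted p = 0.0157). NFIL3 (-1.25) and ZEB2 (-1.90), factors of NK-cell development and of late effector cells, also passed. IL2RB, the chain through which interleukins 2 and 15 signal, fell by 3.05 on the log2 scale (adjusted p = 0.00794). CD8B, TCF7, NFIL3 and IL2RB were below the floor in all 4 lymphomas, so the sizes of their differences rest on dim signals. Of 17 alternatives, NFIL3 lost its call in 7, CD8B and TCF7 in 6 each, CRTAM in 2 and IL2RB in 1.

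Of 7 genes of granule contents and their inhibitors, 2 were lower. SRGN, the proteoglycan that packs the granule, fell by 2.40 in the B-cell set and SERPINB1, a protease inhibitor also abundant in myeloid cells, fell by 2.31. IL18, a cytokine made by macrophages, was the only 1 of 7 cytokines and ligands that passed (-1.65). Of 20 alternatives, IL18 and ZEB2 lost their call in 13 each, SRGN and SERPINB1 in 12 each, TYROBP in 9 and FCER1G and PRDM1 in 4 each. None of 8 genes of the release machinery passed in any of the 4 comparisons, and their median difference in the B-cell set was -0.05. Over all 7 B-cell lymphomas 4 of 59 genes were lower (SERPINB1, CD8B, FCER1G and PRDM1), against 1.57% of all genes tested. CD8B was below the floor in all 7 and lost its call in 10 of 19 alternatives. SERPINB1 lost its call in 6 of 22, and FCER1G and PRDM1 in 2 of 22 each. In T-cell lymphoma 2 of 51 were lower (FCER1G at -2.54 and PRDM1 at -3.84), against 1.23% of all genes tested. Between T-cell and B-cell lymphoma 0 of 52 passed. Of 5 molecules by which target cells are recognized or killed, FAS (-2.69) and ICAM1 (-2.29) were lower in T-cell lymphoma than in normal dogs. Of 21 alternatives in that comparison, FAS lost its call in 12, ICAM1 and FCER1G in 13 each and PRDM1 in 11.

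The classes were set beside the lists as well. Every K–N lymphoma lay above every E–J lymphoma for 1 of the 7 genes at the floor on at least 3 arrays (CTSW), for 14 of 16 T-cell markers, for all 5 helper T-cell markers and for 4.45% of all 9400 genes. Of 17 receptors and adaptors 5 did so (CD226, CD96, CRTAM, SH2D1A and CD247, the last also a T-cell marker), and of 11 transcription factors 3 did (TOX, GATA3 and TCF7). CD8A reached at most 6.74 in K–N, 6.72 in E–J and 7.36 in the normal nodes. CD4 was 9.81 to 10.46 in K–N, 6.79 to 8.10 in E–J and 8.77 to 9.80 in the normal nodes.

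**Figure D4:**
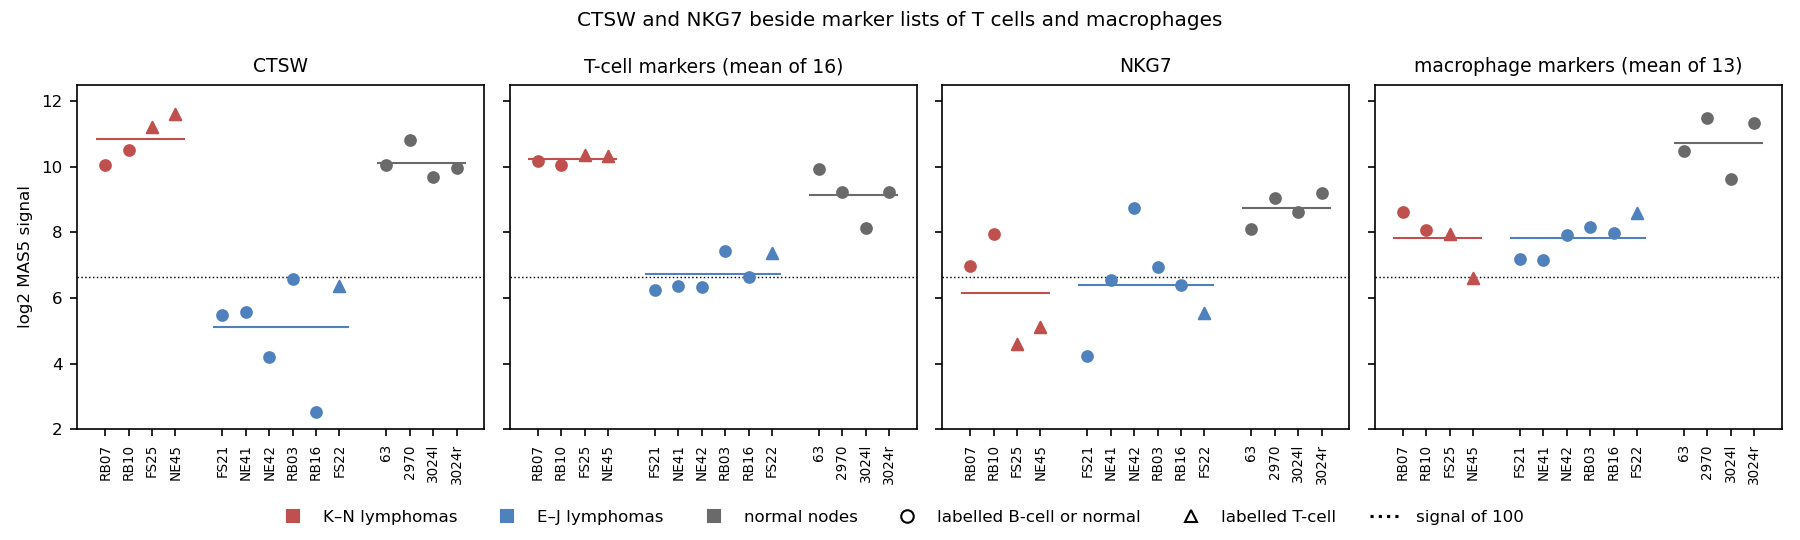
Log2 MAS5 signal (y axis) of CTSW and NKG7 on the 14 arrays (x axis), beside the mean of 16 T-cell markers and of 13 macrophage markers. Symbols and lines are as in the plot of the 8 genes by array. CTSW and the T-cell markers are low on the E–J arrays, while NKG7 and the macrophage markers are higher in the normal nodes than in K–N.

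NE42, labelled B-cell, is described here because its high values within E–J were known when the genes were chosen, so the counts below support nothing. Its gene value was the highest of the 6 lymphomas for 5 of the 7 genes at the floor on at least 3 arrays. Of all such genes, 11.3% were highest in NE42 among these lymphomas. For the 2 others of the 7 genes NE42 ranked 2 (EOMES) and 5 (CTSW). On the bright GZMK probe set, however, RB03 (9.20) lay above NE42 (9.16). The rank of NE42 for GZMK and the size of its excess thus depend on the dim probe set. Set against the median of the other 5, NE42 was higher by 3.95 for GZMB, 3.05 for GZMK, 2.69 for KLRD1, 2.31 for NKG7, 2.16 for GZMA and 1.04 for EOMES, and CTSW was lower by 1.39. The median of the other 5 was below the floor for all of these genes but GZMA, so the sizes rest on dim signals, and for EOMES and CTSW the value of NE42 was below the floor as well. An excess of at least 1 was found for 6 of the 7 genes, EOMES included, and for 5.41% of all genes. These values describe 1 array, and no test was run on them. GZMA and GZMB in NE42 were above all 4 normal nodes and were the highest of the 14 arrays.

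The other lists were mixed in NE42. The cytokines and ligands had a median of 0.14, with 5 of 11 genes at least 1 above. CCL5, a chemokine of cytotoxic T and NK cells, had a log2 signal of 11.85 in NE42, the highest of all 14 arrays, and 5.02 above the median of the other E–J lymphomas. IFNG, the interferon of activated killer cells, was 7.66, an excess of 4.60 over a dim median, and CCL4 was 8.75, an excess of 1.93. IL2, at 6.60, was below the floor in NE42 and in the median of the others. In the same list TNF was 2.35 lower in NE42 than that median, the lowest of the 6 lymphomas. IL15 was 1.14 lower, with both of its values below the floor. The receptors and adaptors had a median of 0.39, with 7 of 17 genes at least 1 above. Among them CD160, a receptor of NK cells and CD8 T cells, was 9.97 in NE42, an excess of 2.15. KLRG1 was 7.67, an excess of 1.56 over a dim median. LAIR1 and CD8A, at 6.01 and 6.21, were below the floor in NE42 and in the median of the others. S1PR1, a receptor by which lymphocytes leave lymph nodes, was 0.85 in NE42, the lowest of 14 arrays, and 8.16 in the median of the others. As lists, the T-cell markers, granule contents, release machinery, cytokine and chemokine receptors and transcription factors did not show the excess. Their medians included 0.02 for the granule contents, -0.61 for the receptors of cytokines and chemokines and -0.06 for the transcription factors. PRF1, too dim to enter the counts, was 3.01 in NE42 and 3.04 in the median of the others. The 16 T-cell markers had a median of -0.26 with 0 of 16 at least 1 above, CD3E was 8.55, and the 8 genes of the release machinery had a median of -0.04. Of 5 NK-cell markers CD160 alone was at least 1 above, and NCR1 was 2.53. SH2D1B was lower by 4.91, but it was below the floor in NE42 (1.54) and in the median of the others (6.44). The 10 B-cell markers had a median of -0.26. Among them MS4A1 was 12.40 in NE42, 0.33 above the median of the others. CD79A was 9.29, lower by 1.61 and the lowest of the 6 lymphomas. The 3' to 5' ratio of GAPDH was 8.60 on NE42 and 3.76 to 5.36 on the other E–J arrays, and its part in the excess was not tested.

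**Figure D5:**
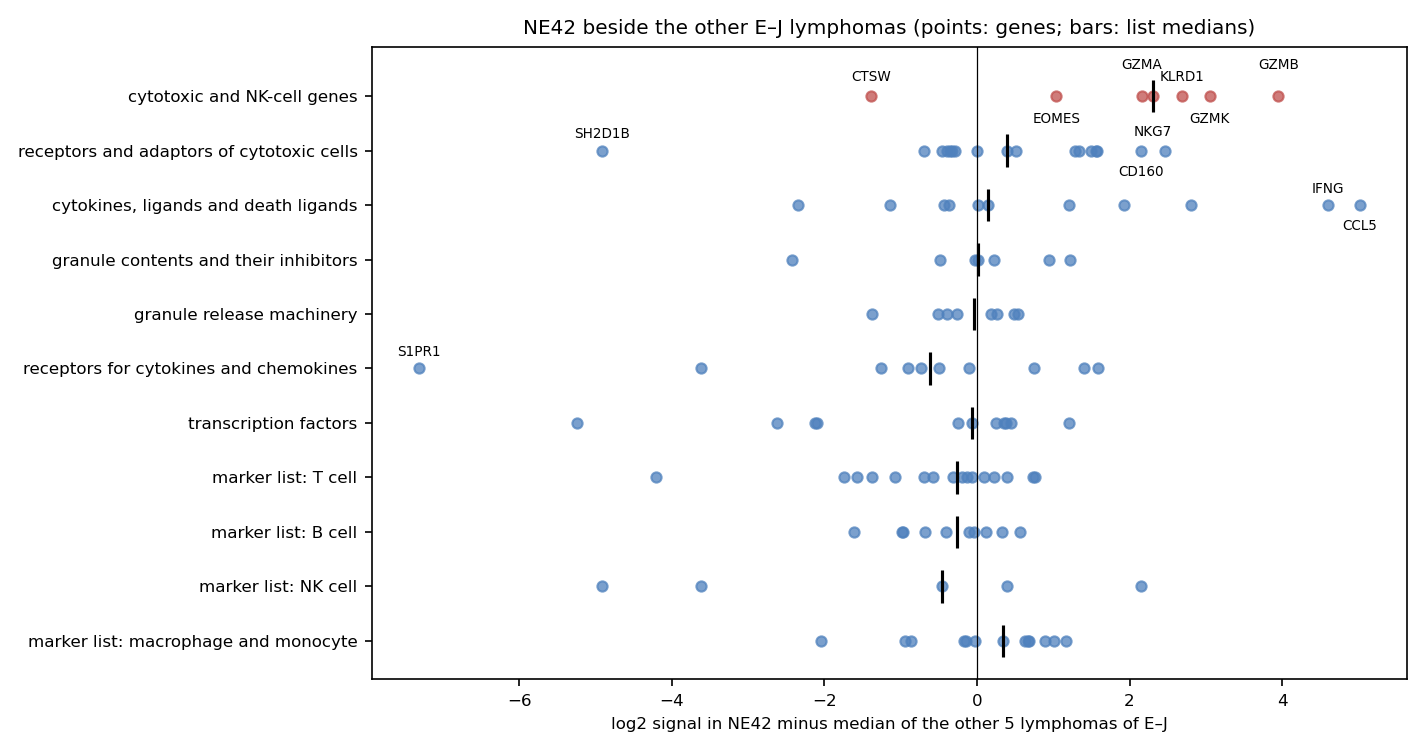
Log2 signal in NE42 minus the median of the other 5 E–J lymphomas (x axis) for genes at the floor on at least 3 arrays, by gene list (rows). Points are genes and bars are list medians. The median of the cytotoxic and NK-cell genes is 2.31 and that of the T-cell markers is -0.26.

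The profiles of the 8 genes over the 14 arrays, each centered on its own mean, were compared by Euclidean distance. GZMK and NKG7 (3.52) and EOMES and GZMK (3.78) lay closest, whereas CTSW was 10.69 to 13.35 from each of the 7 others. The 8 genes nearest to their mean profile, among 9400, were LAMP2 (1.99), LIPA (2.09), PCOLCE2 (2.22), AIF1 (2.40), CD99 (2.48), LPCAT2 (2.55), C1QA (2.56) and ACSL1 (2.61). LAMP2 and LIPA encode a lysosomal membrane protein and the lysosomal acid lipase, and AIF1 and C1QA are genes of macrophages. C1QA, for example, was 7.82 to 9.20 in K–N, 8.20 to 10.61 in E–J and 10.76 to 12.57 in the normal nodes. For CTSW alone, examined after its values were seen, the nearest named genes were THEMIS (3.09) and CD5 (3.62), both of T cells, and LEF1 (3.97). THEMIS was 10.66 to 11.67 in K–N, 2.49 to 7.92 in E–J and 8.98 to 10.05 in the normal nodes. These distances are over 14 arrays that include a pair from 1 dog, and they describe likeness only.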

How the data were processed

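The deposited values are linear MAS 5.0 signal intensities per probe set. Each array had been brought by the authors to a trimmed mean of 500, and its trimmed mean was 500.1 here. RNA was amplified with WT-Ovation Pico. Detection calls and RNA-Seq were not used here. The log2 of each signal was used as it stood. Of 43035 probe sets, 29254 carried a single symbol and gave 15115 genes by their mean log2 signal, whereas 111 controls and 439 probe sets with several symbols did not enter. A gene entered a comparison when 3 or more of its arrays reached a signal of 100. The empirical Bayes fit of limma 3.58.1 (R 4.3.3) was used, and p-values were adjusted over all genes of the fit by Benjamini-Hochberg. This replaced the Welch test of the methods, which was run as an alternative. The nodes 3024l and 3024r were averaged, except in the study's B-cell set. A bound of "at least" sets each dim array to a signal of 100 and is given for genes with 1 probe set. It compares group means, carries no sampling error and is worded so only where the difference passed.

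The 10 genes, the lists and the tests were chosen with earlier results of these data known. All 10 genes were reported, with up to 4 genes of each list by smallest adjusted p, up to 4 of a list with the largest excess in NE42, cell markers and the 8 nearest profiles. SH2D1B, S1PR1, the genes nearest to CTSW, the macrophage markers named for T-cell lymphoma and the genes named for the K–N and E–J split were picked after their values were seen. The dogs are the replicates, 1 array each, and the number of arrays limits the precision. Alternatives changed the filter, scaling, pseudocount, floor, gene summary, arrays in the fit and test. The limma steps were tested on simulated data. Figures were drawn with matplotlib 3.10.9. No genome coordinates were used.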

Additional observations from a re-analysis of the deposited data

How the results depend on the processing

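In the B-cell set against normal nodes 2 of the 7 genes tested passed the threshold. The count was 1 without the filter, 1 with quantile normalization, 1 with 3024l in place of 3024r, 0 with all groups in 1 fit and 0 by the Welch test, and it was 0 to 3 when single arrays were left out. KLRD1 passed in addition after adding 50 to each signal (adjusted p = 0.0245) and with signals below 100 raised to it (adjusted p = 0.0193). It also passed without NE42, an array already known to be high, so that call adds no support. The count was 3 each time. With the tested genes held fixed, an alternative chosen after seeing the data, the count was 0 without any of the normal nodes. In all B-cell lymphomas the count of 0 became 2 after adding 50 to each signal, 1 with signals below 100 raised to it and 1 without RB07 and RB10. In T-cell lymphoma against normal dogs the count of 2 became 0 without the filter, 1 with median centring, 0 with the probe set of highest mean (NKG7 -2.95, adjusted p = 0.0816), 0 with all groups in 1 fit, 0 by the Welch test and 1 with 3024l alone. It was 0 to 2 when single dogs were left out, and 0 without any normal dog with the tested genes held fixed. Between T-cell and B-cell lymphoma the count was 0 under every alternative run.

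Some differences near 0 changed sign. GZMA in the B-cell set was 0.07 with quantile normalization, 0.16 with all groups in 1 fit, 0.48 when 3024l replaced 3024r and -0.71 to 0.15 with single arrays left out (with fixed genes, 0.15 without 2970 and 0.06 without 3024r). GZMB there was 0.09 with raised signals, 0.17 with 3024l, 0.27 without 3024r with fixed genes and -1.41 to 0.39 with single arrays left out. In all B-cell lymphomas GZMA was 0.04 with raised signals, 0.11 with 3024l alone and -0.59 to 0.27 with single dogs left out. GZMB there was -0.03 with raised signals, -0.21 with the mean of linear signals, -0.53 with the probe set of highest mean, -0.28 with 3024r alone, -0.19 without RB07 and RB10 and -0.81 to 0.46 with single dogs left out. CTSW in T-cell lymphoma was 1.18 without FS22 and -1.44 to 1.18 with single lymphomas or normal dogs left out. KLRD1 in T-cell against B-cell lymphoma was -0.24 with raised signals. The causes were not tested.

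Over all genes, the 902 calls in the B-cell set became 193 without the filter, 1613 after adding 50, 1807 with raised signals, 1424 with linear means, 176 in 1 fit, 8 by the Welch test and 232 with 3024l. They were 70 without 63, 15 without 2970 and 25 without 3024r (201, 82 and 136 with the tested genes held fixed), and 593 to 1207 with 1 lymphoma left out. The split of 289 higher and 613 lower was 411 and 526 with quantile normalization. The 169 calls in all B-cell lymphomas ranged over the alternatives from 3 (without 2970) to 708 (raised signals), and the 112 in T-cell lymphoma from 0 to 544 (without FS22). Without RB07, RB10 and FS22, T-cell and B-cell lymphoma differed in 267 genes. Signals under 100 limit GZMB, GZMK, EOMES and PRF1 most. No paired analysis was possible because the replicate numbers follow accession order and pair no dogs across groups.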
